A study of Mus musculus with 15 samples.

Results

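The genes described here encode the enzymes of cholesterol and fatty acid synthesis and their main regulators, measured in MC38 tumours after injection of BO-112, DMXAA or both. The set was drawn up as 30 gene symbols, 20 for sterols and 10 for fatty acids, and a gene was taken where its Ensembl identifier, without the version, mapped to one of these symbols. All 30 were found among the 17712 genes of the deposited table, and all 30 entered the tests. The sterol genes are Hmgcs1, Mvk, Pmvk, Mvd, Idi1, Fdps, Fdft1, Sqle, Lss, Cyp51, Tm7sf2, Msmo1, Nsdhl, Hsd17b7, Ebp, Sc5d, Dhcr7, Insig1, Srebf2 and Stard4. The fatty acid genes are Srebf1, Scd1, Scd2, Fasn, Acaca, Acly, Acss2, Elovl6, Fads1 and Fads2.

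Stranded mRNA libraries came from 15 subcutaneous tumours, raised in the flank of C57BL/6 mice, grown from MC38, a colon carcinoma line of that strain. Tumours of about 5 mm were injected with 100 µL and taken 24 h later. The groups were BO-112 at 50 µg (n = 4), DMXAA at 100 µg (n = 4), both agents at these same doses, written BO-112+DMXAA (n = 4), and the vehicle, phosphate-buffered saline with DMSO and glucose (n = 3). BO-112 carries poly I:C, which cells read as viral double-stranded RNA, and DMXAA activates mouse STING, the adaptor for cytosolic DNA. Tumours of a group are called biological replicates in the labels, and hosts and tumour line were the same in all groups.

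Cholesterol is built from acetyl-CoA through mevalonate, farnesyl diphosphate, squalene and lanosterol, and the later enzymes turn lanosterol into cholesterol. Fatty acids are built from the same acetyl-CoA by carboxylation and repeated chain growth, and are then lengthened and desaturated. The transcription factors SREBP-2 (Srebf2) and SREBP-1 (Srebf1) drive most of these genes when sterols in the endoplasmic reticulum are low, and Insig1 holds them back when sterols are high.

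The libraries held 15677864 to 19070268 recovered reads in BO-112 tumours, 14710769 to 19660511 in DMXAA tumours, 12725316 to 16133547 in BO-112+DMXAA tumours and 13073772 to 15737746 in vehicle tumours. Levels are given as CPM, read counts relative to the scaled library size. Changes are on the log2 scale with the SE of the limma fit, and a gene passed where its Benjamini-Hochberg adjusted p, taken over the 17712 genes, was under 0.05. The epithelial markers Epcam and Krt19 stood near 0 in all tumours, at no more than 2.70 and 1.87 CPM, while Cdh1, the epithelial cadherin, lay between 4.94 and 82.6 CPM. The leukocyte gene Ptprc lay between 145 and 369.7 CPM, so the RNA holds host cells as well as tumour cells. In whole tumours fewer cells of a type and less RNA per cell cannot be told apart. Libraries of DMXAA 2 and DMXAA 3 stood apart by transcript length. Against the mean of the other 14 libraries, the shortest 25% of genes had a median log2 difference of 0.74 in DMXAA 2 and 0.38 in DMXAA 3, and the longest 25% one of -0.51 and -0.28. Skeletal muscle genes were high in BO-112 1, DMXAA 1, DMXAA 3 and vehicle 2.

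The promoters of the sterol genes share short sequence motifs, and 4 windows are shown, 3 of sterol genes that between them hold every motif searched and 1 of a fatty acid gene that fell strongly. Each is the 250 bases before an annotated start in RefSeq on GRCm38.p6, which is not the mm39 build of the authors' alignment. Of the 30 members, 23 had an entry, with 28 windows in all. Fdps, Fdft1, Sqle, Stard4, Scd1, Scd2 and Fads1 had none. Capitals mark matches on either strand to CCAAT (or ATTGG), to the GC box GGGCGG (or CCGCCC), to the E box CACGTG and to TCACNCCA (or TGGNGTGA), a form of the sterol regulatory element. The motifs were counted separately, so matches may overlap.
Hmgcs1, chr13:119690101-119690350, plus strand: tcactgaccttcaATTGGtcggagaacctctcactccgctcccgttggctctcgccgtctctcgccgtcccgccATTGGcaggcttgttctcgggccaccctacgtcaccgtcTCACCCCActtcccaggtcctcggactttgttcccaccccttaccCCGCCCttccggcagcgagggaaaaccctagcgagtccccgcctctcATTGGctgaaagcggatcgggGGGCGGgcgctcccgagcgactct
Dhcr7, the last of 3 starts, chr7:143829964-143830213, plus strand: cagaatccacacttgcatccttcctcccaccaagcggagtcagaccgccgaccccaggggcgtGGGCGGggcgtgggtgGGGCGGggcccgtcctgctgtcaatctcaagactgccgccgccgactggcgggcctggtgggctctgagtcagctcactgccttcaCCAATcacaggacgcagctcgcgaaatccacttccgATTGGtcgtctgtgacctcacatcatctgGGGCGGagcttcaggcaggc
Insig1, chr5:28071162-28071411, plus strand: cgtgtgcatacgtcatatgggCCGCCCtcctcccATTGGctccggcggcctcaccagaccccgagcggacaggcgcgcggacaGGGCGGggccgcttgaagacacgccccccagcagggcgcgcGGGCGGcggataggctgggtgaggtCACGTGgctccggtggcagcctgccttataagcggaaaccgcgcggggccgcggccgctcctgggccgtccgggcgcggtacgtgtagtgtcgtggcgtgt
Fads2, chr19:10101504-10101753, minus strand: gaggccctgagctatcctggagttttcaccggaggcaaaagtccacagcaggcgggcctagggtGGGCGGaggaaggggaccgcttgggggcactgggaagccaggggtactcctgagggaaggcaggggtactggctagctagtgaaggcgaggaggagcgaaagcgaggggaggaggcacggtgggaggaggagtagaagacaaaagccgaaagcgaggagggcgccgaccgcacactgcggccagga

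CCAAT was found in at least 1 window of all 16 sterol genes with an entry, and in 84.2% of their 19 windows. It was found in 44.4% of the 9 windows of fatty acid genes and in 33.8% of all 32851 windows in the table. Shares among the windows of the measured genes alone are not given, so how far the members differ from those is open. GGGCGG was in 84.2% of the sterol windows, 55.6% of the fatty acid windows and 32.7% of all windows. TCACNCCA was in the windows of Hmgcs1, Msmo1 and Srebf2, which is 15.8% of sterol windows against 3.67% of all windows. CACGTG was in windows of Dhcr7, Hsd17b7, Insig1 and Sc5d, 21.1% of sterol windows against 6.02% of all windows, and in 0 of the 9 fatty acid windows. The Hmgcs1 window holds 3 CCAAT matches and the Dhcr7 window shown 2, while the Fads2 window has a single GC box and 0 CCAAT matches. The windows of Dhcr7 starts 1 and 2, not shown, also have 0 CCAAT matches, and the Dhcr7 E box lies in that of start 2. These are matches of letters and were not tested as binding sites.

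BO-112 tumours had less RNA of sterol and fatty acid synthesis genes than vehicle tumours. Of the 20 sterol genes 7 fell and 0 rose, and of the 10 fatty acid genes 5 fell and 0 rose. Over all genes 11.9% passed the test, 4.31% falling and 7.64% rising. At an unadjusted p under 0.05, 14 sterol and 8 fatty acid genes were lower, against 12.4% of all genes. All 30 fold changes were below 0, against 54.2% of all genes. The median log2 fold change was -0.72 over the sterol genes and -0.60 over the fatty acid genes, and -0.04 over all genes. In 17 of 20 sterol genes and 8 of 10 fatty acid genes every BO-112 tumour lay below every vehicle tumour, which held for 16.8% of all genes.

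**Figure D1:**
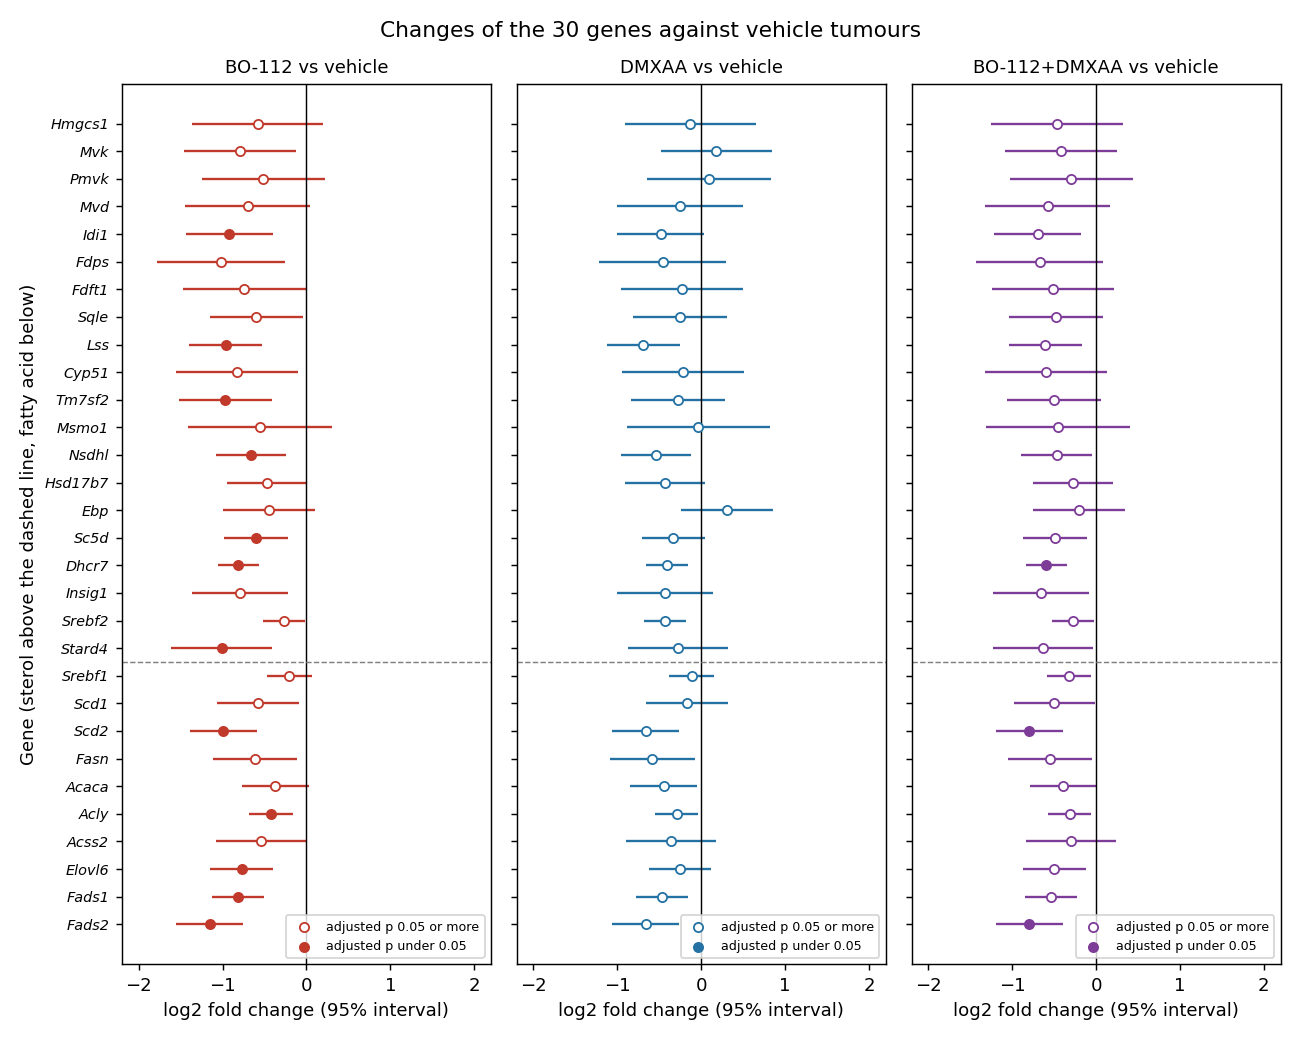
Log2 fold change against vehicle tumours with its 95% interval from limma for each of the 30 genes (sterol genes above the dashed line, fatty acid genes below) in BO-112, DMXAA and BO-112+DMXAA tumours. Filled points passed the threshold, 12 genes with BO-112, 0 with DMXAA and 3 with both agents, and all 30 points lie left of 0 in the BO-112 and BO-112+DMXAA panels.

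Among the 6 genes that lead from acetoacetyl-CoA to farnesyl diphosphate, Idi1 fell. Idi1 (ENSMUSG00000058258.15), which isomerises isopentenyl diphosphate, stood at 14.04, 13.6, 22.5 and 13.5 CPM in BO-112 tumours, against 30.5, 28.03 and 29.7 CPM in vehicle tumours. BO-112 3 was the highest of its group, and the groups did not overlap. The log2 fold change was -0.92 ± 0.24 (limma adjusted p = 0.0229). Of the Idi1 transcript, 19.98% of the 100-base stretches also occur in other annotated genes, so its count is uncertain. Hmgcs1, which makes HMG-CoA, stood at -0.58 ± 0.37, the mevalonate kinases Mvk and Pmvk at -0.79 ± 0.31 and -0.51 ± 0.34, the decarboxylase Mvd at -0.70 ± 0.35 and farnesyl diphosphate synthase Fdps at -1.02 ± 0.36, and these did not pass the limma test (adjusted p between 0.0772 and 0.384). Fdps shares 75.8% of its 100-base stretches with other genes and counted only 1.66 to 3.13 CPM in BO-112 tumours, against 4.00 to 4.98 CPM in vehicle tumours, so its value is uncertain.

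Among the 3 genes from farnesyl diphosphate to lanosterol, Lss fell. Lss (ENSMUSG00000033105.13), lanosterol synthase, stood at 29.9, 28.5, 37.0 and 26.9 CPM in BO-112 tumours, against 65.7, 59.4 and 53.0 CPM in vehicle tumours. The groups lay well apart, with the highest BO-112 tumour below the lowest vehicle tumour. Its log2 fold change was -0.96 ± 0.20 (limma adjusted p = 0.00583). Squalene synthase Fdft1 and squalene epoxidase Sqle stood at -0.74 ± 0.34 and -0.60 ± 0.26 without passing (limma adjusted p = 0.184 and 0.161), although every BO-112 tumour lay below every vehicle tumour for both. Fdft1 exons overlap Ctsb on the opposite strand over 18.3% of their length, and whether the counting used strand is not given in the sources used here.

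Of the 8 genes that act after lanosterol 4 fell, namely Tm7sf2, Nsdhl, Sc5d and Dhcr7. Dhcr7 (ENSMUSG00000058454.16), the reductase that makes cholesterol from 7-dehydrocholesterol, stood at 31.6, 31.7, 36.8 and 29.9 CPM in BO-112 tumours, against 57.9, 55.3 and 57.4 CPM in vehicle tumours. Replicates were close together in both groups and the gap between the groups was wide. Its log2 fold change of -0.81 ± 0.12 had the smallest adjusted p of the 30 genes (limma adjusted p = 0.000282). Tm7sf2 (ENSMUSG00000024799.17), a sterol C14 reductase, stood at 2.69, 3.91, 4.66 and 2.93 CPM in BO-112 tumours, against 7.76, 5.45 and 7.41 CPM in vehicle tumours. These groups did not overlap either, but BO-112 3 came near vehicle 2. Its log2 fold change was -0.97 ± 0.26 (limma adjusted p = 0.0256). Of its exons 12.1% overlap Vps51 on the same strand, so its count is uncertain.

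Nsdhl (ENSMUSG00000031349.5), which takes part in the removal of the C4 methyl groups, stood at 17.8, 16.9, 21.8 and 16.01 CPM in BO-112 tumours, against 30.2, 25.5 and 30.1 CPM in vehicle tumours. Sc5d (ENSMUSG00000032018.15), the C5 desaturase just before Dhcr7, stood at 34.8, 32.8, 37.2 and 28.6 CPM in BO-112 tumours, against 53.5, 46.2 and 51.7 CPM in vehicle tumours. For both genes all BO-112 tumours were lower than all vehicle tumours, and BO-112 3 was the highest of the treated ones. The log2 fold changes were -0.66 ± 0.20 for Nsdhl and -0.60 ± 0.18 for Sc5d (limma adjusted p = 0.0399 for each). The demethylase Cyp51, the C4 oxidase Msmo1, the 3-keto reductase Hsd17b7 and the isomerase Ebp stood between -0.83 and -0.44 and did not pass (limma adjusted p between 0.132 and 0.426). Msmo1 and Hsd17b7 overlapped with vehicle tumours only through BO-112 3, at 82.2 and 22.9 CPM.

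Of the 3 control and transport genes Stard4 fell. Stard4 (ENSMUSG00000024378.10), a cytosolic carrier of sterols, stood at 24.7, 22.7, 36.0 and 20.2 CPM in BO-112 tumours, against 53.1, 48.8 and 51.0 CPM in vehicle tumours. The groups did not overlap. Its log2 fold change was -1.01 ± 0.28 (limma adjusted p = 0.0288). Insig1, the sterol-sensing anchor of SREBP, stood at -0.79 ± 0.27 and Srebf2 at -0.27 ± 0.12, both without passing the limma test (adjusted p = 0.0704 and 0.153), and both lay below vehicle in all 4 BO-112 tumours.

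Among the fatty acid genes, those that lengthen and desaturate chains fell in 4 of 5 cases. Fads2 (ENSMUSG00000024665.9), the delta-6 desaturase of polyunsaturated fatty acids, stood at 72.6, 73.2, 90.5 and 65.0 CPM in BO-112 tumours, against 179, 159.6 and 161 CPM in vehicle tumours. Fads1 (ENSMUSG00000010663.6), the delta-5 desaturase, stood at 152, 148, 166 and 134 CPM in BO-112 tumours, against 278, 244 and 273 CPM in vehicle tumours. For both desaturases the highest BO-112 tumour lay far below the lowest vehicle tumour. The log2 fold change was -1.15 ± 0.19 for Fads2, the largest fall of the 30 genes, and -0.82 ± 0.14 for Fads1 (limma adjusted p = 0.000823 and 0.00150).

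Scd2 (ENSMUSG00000025203.7), a stearoyl-CoA desaturase that makes monounsaturated fatty acids, stood at 661, 816, 893 and 519.9 CPM in BO-112 tumours, against 1564, 1205 and 1475 CPM in vehicle tumours. Elovl6 (ENSMUSG00000041220.11), which lengthens palmitate, stood at 49.5, 54.0, 57.3 and 39.0 CPM in BO-112 tumours, against 93.0, 88.1 and 73.8 CPM in vehicle tumours. Neither gene overlapped between the groups, and BO-112 4 was the lowest tumour for both. The log2 fold changes were -0.99 ± 0.19 for Scd2 and -0.77 ± 0.18 for Elovl6 (limma adjusted p = 0.00252 and 0.00903). The related Scd1 stood at -0.58 ± 0.23 (limma adjusted p = 0.117), with 126, 201, 148 and 117 CPM in BO-112 tumours and 228, 217 and 205 CPM in vehicle tumours.

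Of the 4 enzymes that make palmitate and its precursors, Acly fell. Acly (ENSMUSG00000020917.18), which releases acetyl-CoA from citrate, stood at 322, 303, 346 and 299.6 CPM in BO-112 tumours, against 447, 428 and 401 CPM in vehicle tumours. The groups did not overlap, and the log2 fold change of -0.42 ± 0.12 was the smallest among the genes that fell (limma adjusted p = 0.0344). Fatty acid synthase Fasn stood at -0.61 ± 0.24, acetyl-CoA carboxylase Acaca at -0.37 ± 0.19 and the acetate-activating enzyme Acss2 at -0.54 ± 0.25, without passing (limma adjusted p between 0.108 and 0.226). Acaca shares 42.8% of its 100-base stretches with another annotated gene and is uncertain. Srebf1, the gene of SREBP-1, stood at -0.20 ± 0.13 (limma adjusted p = 0.335).

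**Figure D2:**
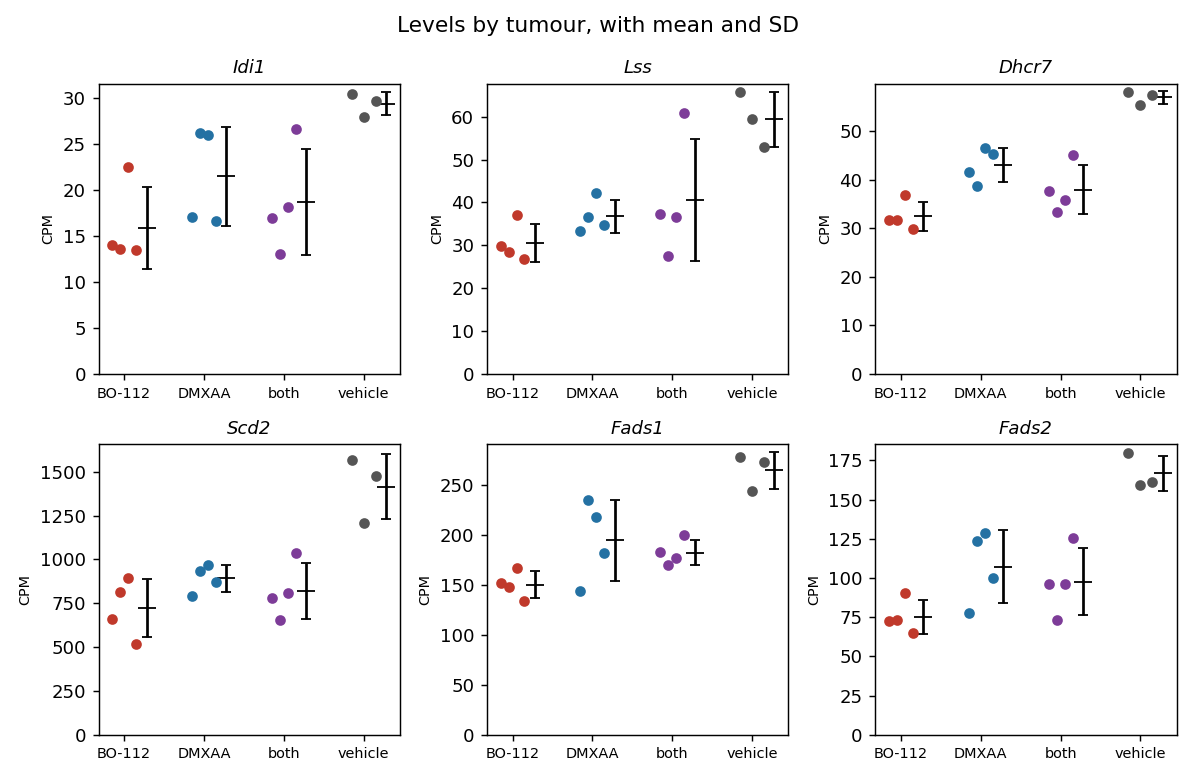
Level in CPM of Idi1, Lss, Dhcr7, Scd2, Fads1 and Fads2 in each tumour (points) with the group mean and SD (bars), for BO-112, DMXAA, both agents (BO-112+DMXAA) and vehicle. In each of the 6 panels all 4 BO-112 points lie below all 3 vehicle points, and the highest BO-112+DMXAA point is replicate 4.

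The number of calls with BO-112 depended on single libraries. The share of all genes that passed in each of these settings is not given here. A changed count is therefore not by itself a result about the lipid genes. Without vehicle 1, vehicle 3, BO-112 1 or BO-112 4 the sterol count was 2 of 20, without vehicle 2 or BO-112 2 it was 3, and without DMXAA 2, which shares in the estimate of the spread, it was 12. The fatty acid count was 3 of 10 without vehicle 1. The calls of Dhcr7, Lss, Fads1, Fads2 and Scd2 were kept with every library left out in turn. Without the 4 libraries high in muscle genes, a choice made after seeing the data, 1 sterol gene (Dhcr7) and 3 fatty acid genes (Fads1, Fads2, Scd2) fell, with medians of -0.77 and -0.69. With library sizes from total reads alone the median of all genes moved to -0.20, the sterol median to -0.88 and the sterol count to 13.

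Other cell and state markers moved with BO-112 as well, where 4.31% of all genes fell and 7.64% rose. Of 10 proliferation genes 6 fell, among them Plk1 (-0.84 ± 0.17) and Aurkb (-0.78 ± 0.16), and their summed level was 1287 to 1453 CPM in BO-112 tumours, against 1760 to 2085 CPM in vehicle tumours. Of 8 neutrophil genes 3 rose (S100a8, S100a9 and Csf3r, 1 of them by limma-voom), with sums of 198 to 256 CPM in BO-112 tumours and 134 to 189 CPM in vehicle tumours, where Ly6g had 0 reads in all 3. The mean log2 CPM of these 8 genes lay 1.38 to 2.45 above the vehicle mean in the BO-112 tumours. Of 8 macrophage genes Mrc1 and Csf1r fell and Fcgr1 rose, with sums of 2321 to 2701 CPM in BO-112 tumours and 2176 to 2739 CPM in vehicle tumours. Of 6 endothelial genes Kdr rose, with sums of 245 to 288 CPM in BO-112 tumours and 179 to 204 CPM in vehicle tumours. Of the 6 proliferation calls, those of Plk1 and Aurkb were kept with each library left out in turn. The others were lost without some libraries (limma adjusted p between 0.0509 and 0.158). So were the calls of Csf1r, Csf3r and S100a8 (limma adjusted p between 0.0501 and 0.127). The part of these cells in the fall of the lipid genes was not tested.

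Neighbouring tissues that a tumour sample can carry along were looked at through their markers. The 11 measured adipocyte genes of 12 listed summed to 21.9 to 363 CPM in BO-112 tumours, 27.7 to 397 CPM in DMXAA tumours, 23.0 to 109 CPM in BO-112+DMXAA tumours and 25.4 to 44.4 CPM in vehicle tumours. The adipocyte sum was 363 CPM in BO-112 2, 289 in DMXAA 1, 397 in DMXAA 2, 95.8 in DMXAA 3 and 109 in BO-112+DMXAA 3. Scd1 was the highest of its group in BO-112 2 (201 CPM) and DMXAA 1 (294 CPM). In DMXAA 2 (177 CPM), DMXAA 3 (161 CPM) and BO-112+DMXAA 3 (167 CPM) it was not. The part of fat in these values was not tested. Plin1, the coat protein of adipocyte droplets, had 0 reads in 2 BO-112 tumours and 1 BO-112+DMXAA tumour. The 11 measured muscle genes of 12 summed to 1.93 to 482 CPM in BO-112 tumours, 7.17 to 819 CPM in DMXAA tumours, 1.96 to 7.30 CPM in BO-112+DMXAA tumours and 5.34 to 158 CPM in vehicle tumours. The 5 measured keratinocyte and sebaceous genes of 10 summed to no more than 11.8 CPM in any group. In these 3 lists 0 genes passed the limma test in the comparisons with vehicle (unadjusted p under 0.05 for 4 adipocyte genes with DMXAA and 1 with both agents, 0 otherwise, and 0 with limma-voom).

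In DMXAA tumours 0 of the 20 sterol genes and 0 of the 10 fatty acid genes passed the limma test, where 1.25% of all genes did, 0.169% falling and 1.08% rising. At an unadjusted p under 0.05 there were 4 sterol genes (Lss, Nsdhl, Dhcr7, Srebf2) and 6 fatty acid genes (Scd2, Fasn, Acaca, Acly, Fads1, Fads2) lower, against 8.11% of all genes, and limma-voom called 0 of either. The fold changes were below 0 in 17 of 20 sterol genes and 10 of 10 fatty acid genes, against 48.5% of all genes, with medians of -0.28 and -0.40. All DMXAA tumours lay below all vehicle tumours for 6 sterol genes (Idi1, Lss, Nsdhl, Hsd17b7, Dhcr7, Srebf2) and 4 fatty acid genes (Scd2, Acly, Fads1, Fads2), where 5.03% of all genes did so.

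The sterol genes split the DMXAA tumours. Msmo1 stood at 50.3, 231, 97.4 and 50.3 CPM in DMXAA 1 to 4, against 88.5, 81.5 and 97.7 CPM in vehicle tumours. Hmgcs1 stood at 76.6, 289, 138 and 79.7 CPM in DMXAA tumours, against 147, 109 and 159 CPM in vehicle tumours. DMXAA 2 lay far above vehicle for both genes while DMXAA 1 and DMXAA 4 lay below it. Over the 20 sterol genes the median log2 difference from vehicle was -0.69 for the mean of DMXAA 1 and DMXAA 4, with all 20 below 0, and 0.07 for the mean of DMXAA 2 and DMXAA 3, with 9 below 0. Over the fatty acid genes the medians were -0.34 and -0.36, with 9 of 10 below 0 in each pair, but single genes differed between the pairs in opposite directions. Fads1 stood at -0.71 in the mean of DMXAA 1 and DMXAA 4 and at -0.22 in that of DMXAA 2 and DMXAA 3, Fads2 at -0.92 and -0.40, and Srebf1 at -0.32 and 0.09. Fasn stood at -0.18 in the mean of DMXAA 1 and DMXAA 4 and at -0.98 in that of DMXAA 2 and DMXAA 3, and Acaca at -0.13 and -0.76. These pairs were chosen after seeing the values and were not tested against each other.

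Other members lay below vehicle in all 4 DMXAA tumours. Dhcr7 stood at 41.6, 38.6, 46.4 and 45.3 CPM in DMXAA tumours, against 57.9, 55.3 and 57.4 CPM in vehicle tumours, a log2 fold change of -0.41 ± 0.12 (limma adjusted p = 0.110). Lss stood at 33.3, 36.7, 42.3 and 34.8 CPM in DMXAA tumours, against 65.7, 59.4 and 53.0 CPM in vehicle tumours, a log2 fold change of -0.69 ± 0.20 (limma adjusted p = 0.122). Scd2 stood at 794, 935, 969 and 873 CPM in DMXAA tumours, against 1564, 1205 and 1475 CPM in vehicle tumours, a log2 fold change of -0.66 ± 0.19 (limma adjusted p = 0.108). None of these 3 genes overlapped between the groups, and none passed after adjustment over all genes. Fads2 stood at 77.5, 123, 129 and 100.0 CPM in DMXAA tumours (-0.66 ± 0.19, limma adjusted p = 0.110) and Fads1 at 144, 234, 218 and 182 CPM (-0.47 ± 0.14, limma adjusted p = 0.144).

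**Figure D3:**
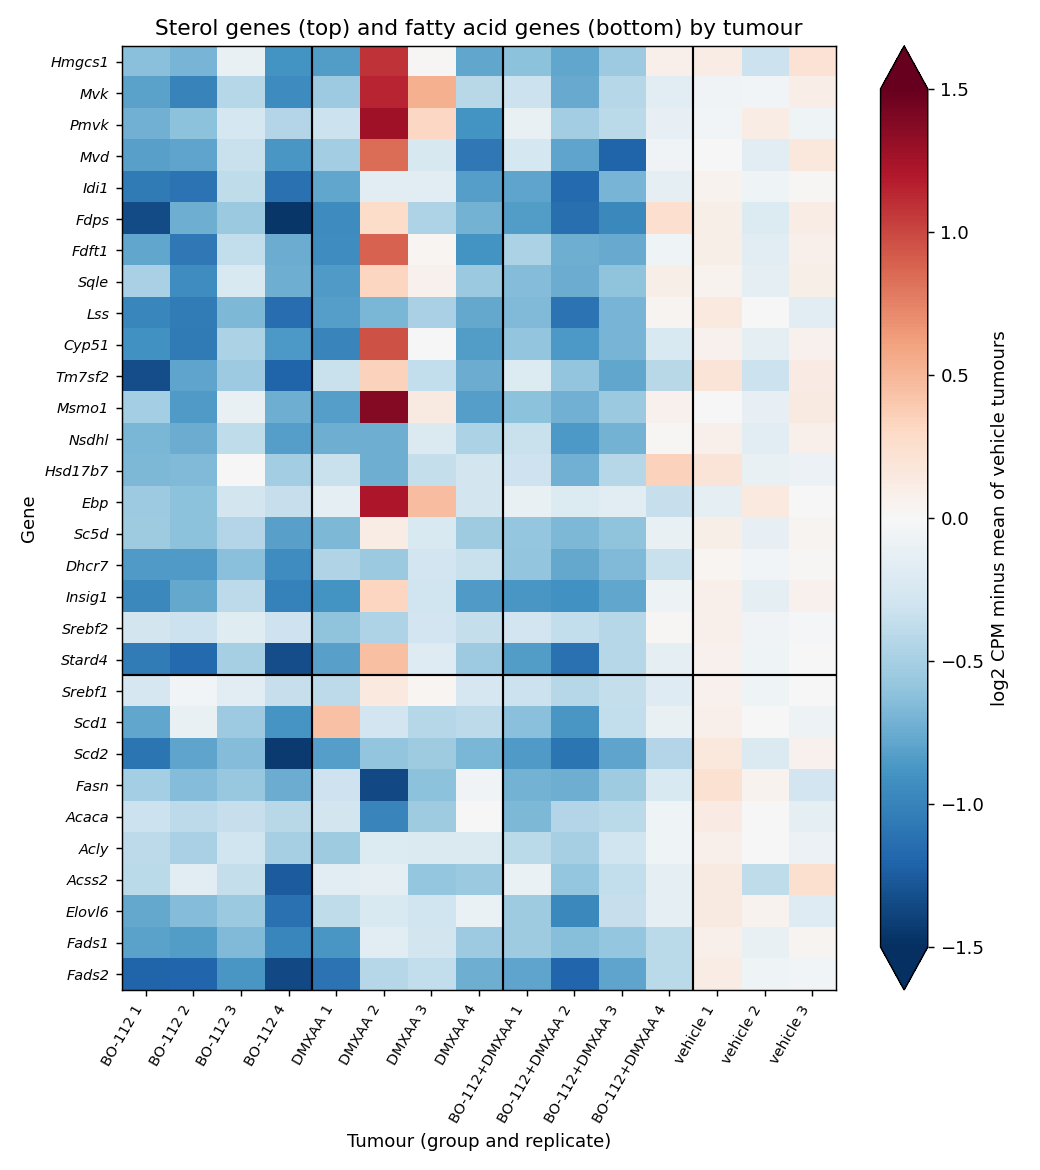
Log2 CPM of each of the 30 genes in each tumour minus the mean of the vehicle tumours, with blue below and red above vehicle (colours end at 1.5 either way). Sterol genes fill the top 20 lines and fatty acid genes the bottom 10. Many sterol genes are red in DMXAA 2, where 6 of 20 lay below all vehicle tumours, and nearly all are blue in DMXAA 1 and DMXAA 4, where 19 and 20 did. BO-112+DMXAA 4 is the palest column of its group, with 13 of 30 genes below all vehicle tumours.

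Short members were mostly higher in DMXAA 2 than in the other DMXAA tumours. Against the mean of the other 3 DMXAA tumours, Msmo1 (longest coding transcript 2044 nt) was higher by 1.88 on the log2 scale and Pmvk (1194 nt) by 1.57, while Fasn (10050 nt) stood at -1.02 and Acaca (9513 nt) at -0.72. Among members under 2500 nt 7 of 8 were higher in DMXAA 2, with a median of 1.24, and among members of at least 4000 nt 7 of 12 were, with a median of 0.01. Across the 30 genes this difference and log2 length had a Pearson r of -0.66 and a Spearman rho of -0.59. Taken apart, r was -0.40 and rho -0.37 over the 20 sterol genes, and r was -0.92 and rho -0.85 over the 10 fatty acid genes, while across all 17636 genes with a length r was -0.25 and rho -0.37. Genes within a library are not independent replicates, and all points share the DMXAA 2 library. Hmgcs1 (3464 nt, 1.62), Fdft1 (3698 nt, 1.49) and Cyp51 (3931 nt, 1.56) were as high in DMXAA 2 as the short members, while Nsdhl (2168 nt) stood at -0.25.

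**Figure D4:**
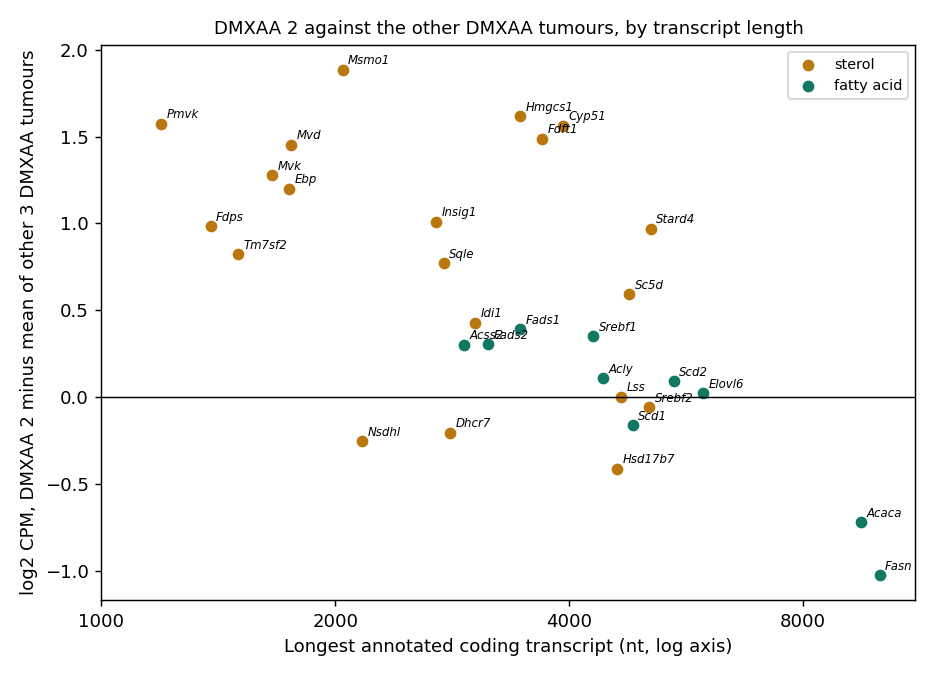
Log2 CPM of DMXAA 2 minus the mean of the other 3 DMXAA tumours (vertical axis) against the longest annotated coding transcript in nt on a log axis (horizontal), 1 point for each of the 30 genes. The shortest members lie mostly above 0, Acaca and Fasn at the long end lie below 0, and Hmgcs1, Fdft1 and Cyp51 lie above the other genes of their length.

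Without DMXAA 2 and DMXAA 3, left out after seeing the data, the DMXAA sterol median was -0.69 and 2 sterol genes (Cyp51, Fdft1) and 2 fatty acid genes (Fads1, Fads2) fell. With the length trend of each library taken out instead, the sterol median stayed at -0.28 and 0 members passed. Without BO-112+DMXAA 4, 1 sterol gene (Lss) passed, and without DMXAA 2 alone 1 fatty acid gene (Fads1) did. With library sizes from total reads alone the median of all genes moved to -0.11 and Fads1 passed. For these settings too the share of all genes that passed is not given. The part of transcript length in the DMXAA result beyond these values was not tested.

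Markers of other cells moved with DMXAA too, where 0.169% of all genes fell and 1.08% rose. Of 8 neutrophil genes S100a8 and S100a9 rose and Mmp9 fell, with 5 higher and 1 lower at an unadjusted p under 0.05. S100a9, a calcium-binding protein abundant in neutrophils, stood at 24.3, 3.70, 12.3 and 47.8 CPM in DMXAA tumours, against 0.498, 0.848 and 0.237 CPM in vehicle tumours. All DMXAA tumours lay above all vehicle tumours, with DMXAA 2 the lowest of them. S100a9 rose by 4.93 ± 0.79 and its partner S100a8 by 4.03 ± 0.81 (limma adjusted p = 0.00820 and 0.0257), and both calls were lost with limma-voom (adjusted p = 0.216 and 0.208) and without vehicle 1 or vehicle 3 (limma adjusted p between 0.0514 and 0.165). The gelatinase Mmp9 stood at 60.2, 63.7, 65.1 and 75.8 CPM in DMXAA tumours, against 139, 88.1 and 158 CPM in vehicle tumours (-0.92 ± 0.18, limma adjusted p = 0.0258), and this call was lost without vehicle 1, vehicle 3 or DMXAA 3 (limma adjusted p between 0.0552 and 0.169). Mmp9 made up most of the neutrophil sum in vehicle tumours, and that sum was 107 to 231 CPM in DMXAA tumours and 134 to 189 CPM in vehicle tumours, while the mean log2 CPM of the 8 genes lay 1.23 to 2.89 above the vehicle mean in the DMXAA tumours.

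Of 8 macrophage genes the Fc receptor Fcgr1 rose with DMXAA by 1.03 ± 0.22 (limma adjusted p = 0.0330), with list sums of 2312 to 4556 CPM in DMXAA tumours and 2176 to 2739 CPM in vehicle tumours. This call was lost with limma-voom (adjusted p = 0.0525) and without vehicle 1, vehicle 3, BO-112 1, BO-112 3, BO-112 4, DMXAA 1, DMXAA 3 or BO-112+DMXAA 2 (limma adjusted p between 0.0504 and 0.182). The macrophage sum of 4556 CPM was that of DMXAA 2. The mean log2 CPM of the 8 genes lay -0.04 to 0.09 from the vehicle mean in the DMXAA tumours. Of 10 proliferation genes 0 passed by limma or limma-voom and 0 had an unadjusted p under 0.05, with sums of 1729 to 2126 CPM in DMXAA tumours and 1760 to 2085 CPM in vehicle tumours. Of 6 endothelial genes 0 passed by limma or limma-voom (1 lower and 1 higher at an unadjusted p under 0.05), with sums of 131 to 298 CPM in DMXAA tumours and 179 to 204 CPM in vehicle tumours. The part of these cells in the DMXAA values of the lipid genes was not tested.

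In BO-112+DMXAA tumours 1 of 20 sterol genes (Dhcr7) and 2 of 10 fatty acid genes (Scd2, Fads2) fell, and 0 rose, where 2.67% of all genes passed, 0.181% falling and 2.49% rising. At an unadjusted p under 0.05, 8 sterol and 8 fatty acid genes were lower, against 3.62% of all genes. All 30 fold changes were below 0, against 51.3% of all genes, with medians of -0.49 for sterol and -0.50 for fatty acid genes. Dhcr7 stood at 37.6, 33.3, 35.8 and 45.0 CPM in BO-112+DMXAA tumours, against 57.9, 55.3 and 57.4 CPM in vehicle tumours, a log2 fold change of -0.59 ± 0.12 (limma adjusted p = 0.00956). Scd2 stood at 779, 657, 811 and 1038 CPM in BO-112+DMXAA tumours, against 1564, 1205 and 1475 CPM in vehicle tumours, a log2 fold change of -0.80 ± 0.19 (limma adjusted p = 0.0327). Neither gene overlapped between the groups, and BO-112+DMXAA 4 was the highest tumour for both. Fads2 stood at 96.2, 73.1, 95.9 and 125 CPM in BO-112+DMXAA tumours, against 179, 159.6 and 161 CPM in vehicle tumours, a log2 fold change of -0.80 ± 0.19 (limma adjusted p = 0.0332).

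All BO-112+DMXAA tumours lay below all vehicle tumours for 6 sterol genes (Mvk, Pmvk, Idi1, Cyp51, Dhcr7, Stard4) and 5 fatty acid genes (Srebf1, Scd1, Scd2, Fads1, Fads2), where 6.58% of all genes did so. BO-112+DMXAA 4 was the tumour that kept the others from this in most cases. It lay below all vehicle tumours for 8 of 20 sterol genes, against 18, 20 and 20 for BO-112+DMXAA 1 to 3. Lss shows this pattern, at 37.3, 27.5, 36.6 and 60.9 CPM in BO-112+DMXAA tumours, against 65.7, 59.4 and 53.0 CPM in vehicle tumours. The Dhcr7 call was lost without vehicle 1 or vehicle 3, and without BO-112+DMXAA 4 both Dhcr7 and Lss passed. The fatty acid count was 0 without vehicle 1, vehicle 3 or any of BO-112+DMXAA 1 to 3, and 1 without vehicle 2 or BO-112 1. Without the 4 libraries high in muscle genes 0 members passed, with medians of -0.59 and -0.49. Without DMXAA 2 and DMXAA 3 the counts were 3 and 5. These counts come without the share of all genes that passed in the same setting.

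Markers of other cells moved with both agents as well, where 0.181% of all genes fell and 2.49% rose. Of 8 neutrophil genes S100a8, S100a9 and Ly6g rose, and 7 were higher and 1 lower at an unadjusted p under 0.05. S100a9 stood at 49.4, 9.52, 14.8 and 74.9 CPM in BO-112+DMXAA tumours, against 0.498, 0.848 and 0.237 CPM in vehicle tumours, and BO-112+DMXAA 4 was the highest of all tumours. S100a9 rose by 5.75 ± 0.79 and S100a8 by 4.65 ± 0.81 (limma adjusted p = 0.000731 and 0.00393), both without passing by limma-voom (adjusted p = 0.147 and 0.142). Ly6g, a surface marker of mouse neutrophils, stood at 0.386, 0.123, 0.292 and 0.689 CPM in BO-112+DMXAA tumours, with 0 reads in the vehicle tumours. It passed narrowly (limma adjusted p = 0.0490) and was lost with limma-voom (adjusted p = 0.0816) and without any 1 of 10 libraries, namely the 3 of vehicle, the 4 of BO-112+DMXAA and DMXAA 1, DMXAA 3 and DMXAA 4 (limma adjusted p between 0.0536 and 0.169). The neutrophil sum, which is mostly Mmp9 in vehicle tumours, was 149.5 to 339 CPM in BO-112+DMXAA tumours and 134 to 189 CPM in vehicle tumours. The mean log2 CPM of the 8 genes lay 1.83 to 3.65 above the vehicle mean in the BO-112+DMXAA tumours.

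Of 8 macrophage genes Fcgr1 rose with both agents by 1.11 ± 0.22 (limma adjusted p = 0.0102, and 0.0641 without vehicle 3), with sums of 2282 to 2832 CPM in BO-112+DMXAA tumours and 2176 to 2739 CPM in vehicle tumours. Of 6 endothelial genes the VEGF receptor Kdr rose by 1.28 ± 0.29 (limma adjusted p = 0.0271), with sums of 149 to 288 CPM in BO-112+DMXAA tumours and 179 to 204 CPM in vehicle tumours. The Kdr call was lost without vehicle 1, vehicle 3, BO-112+DMXAA 1, BO-112+DMXAA 2 or BO-112+DMXAA 4 (limma adjusted p between 0.0734 and 0.166). Of 10 proliferation genes 0 passed by limma or limma-voom (5 lower at an unadjusted p under 0.05), with sums of 1334 to 2009.9 CPM in BO-112+DMXAA tumours and 1760 to 2085 CPM in vehicle tumours. The part of these cells in the lipid gene values with both agents was not tested.

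Set against BO-112 alone, BO-112+DMXAA tumours differed in 0 of 30 genes by limma, where 0% of all genes passed, and at an unadjusted p under 0.05 and by limma-voom the member counts were also 0. The fold changes were above 0 in 19 of 20 sterol genes and 8 of 10 fatty acid genes, against 47.4% of all genes below 0, with medians of 0.22 and 0.15. Set against DMXAA alone, BO-112+DMXAA tumours differed in 0 of 30 genes by limma and by limma-voom, where 0.886% of all genes passed by limma, and 1 gene (Ebp, -0.52 ± 0.24) had an unadjusted p under 0.05, against 11.3% of all genes lower at that p. The sterol median against DMXAA alone was -0.23, and 0.17 without DMXAA 2 and DMXAA 3. Misses at this size do not show that the groups were alike: the 95% interval of Ebp against DMXAA alone ran from -1.03 to -0.01 on the log2 scale.

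BO-112 tumours differed from DMXAA tumours in 3 sterol genes (Mvk, Ebp, Dhcr7) and 1 fatty acid gene (Elovl6), all lower with BO-112. Over all genes 21.4% differed and 10.2% were lower, so the members' share of 4 in 30 is near that of all genes. Dhcr7 differed by -0.40 ± 0.11 (limma adjusted p = 0.0188) and Elovl6 by -0.52 ± 0.16 (limma adjusted p = 0.0355). Mvk stood at 16.1, 13.9, 20.8 and 14.5 CPM in BO-112 tumours, against 19.2, 61.6, 40.5 and 21.01 CPM in DMXAA tumours, a log2 fold change of -0.97 ± 0.29 (limma adjusted p = 0.0295). Ebp stood at 20.5, 19.5, 24.7 and 23.5 CPM in BO-112 tumours, against 27.0, 69.3, 41.1 and 24.6 CPM in DMXAA tumours, a log2 fold change of -0.76 ± 0.24 (limma adjusted p = 0.0374). For Mvk and Ebp the highest tumours were DMXAA 2 and DMXAA 3, the libraries with the length trend, and without them neither passed. No call held with every library left out, and the sterol count ranged between 0 (without BO-112 1, BO-112 4 or DMXAA 3) and 6 (without DMXAA 4), with 1 without BO-112 2 or DMXAA 2 and 5 without DMXAA 1. The fatty acid count was 0 without any 1 of BO-112 1, BO-112 2, BO-112 4, DMXAA 2, DMXAA 3 or DMXAA 4, 2 without BO-112 3, BO-112+DMXAA 2 or BO-112+DMXAA 4, and 3 without DMXAA 1. How the share of all genes moved with each library left out is not given.

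Markers moved in the BO-112 against DMXAA comparison as well, where 21.4% of all genes differed and 10.2% were lower. Of 10 proliferation genes 7 were lower with BO-112, by limma and by limma-voom, with a median log2 fold change of -0.60 and sums of 1287 to 1453 CPM in BO-112 tumours, against 1729 to 2126 CPM in DMXAA tumours. The mitotic kinase gene Plk1 fell by 0.93 on the log2 scale (SE 0.16, limma adjusted p = 0.00121), and of the 7 calls only those of Ccnb1 and Pcna were lost with 1 library left out (Ccnb1 without BO-112 1, BO-112 2, BO-112 4 or DMXAA 3, and Pcna without those or DMXAA 2). Of 8 macrophage genes Mrc1 stood at -1.61 ± 0.44 (limma adjusted p = 0.0203), a call lost without BO-112 1, BO-112 4 or DMXAA 2 (limma adjusted p between 0.0523 and 0.0657). The macrophage sums were 2321 to 2701 CPM in BO-112 tumours and 2312 to 4556 CPM in DMXAA tumours, the highest being DMXAA 2. Of 8 neutrophil genes Mmp9 was higher by 0.98 ± 0.17 (limma adjusted p = 0.00169), with sums of 198 to 256 CPM in BO-112 tumours and 107 to 231 CPM in DMXAA tumours. Of 6 endothelial genes Kdr was higher by 1.60 ± 0.27 and Tek stood at -1.10 ± 0.33 (limma adjusted p = 0.00137 and 0.0302), with sums of 245 to 288 CPM in BO-112 tumours and 131 to 298 CPM in DMXAA tumours. The Tek call was lost without BO-112 1, BO-112 3, BO-112 4, DMXAA 1 or DMXAA 3 (limma adjusted p between 0.0505 and 0.0832). The part of these markers in the 4 member calls was not tested.

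The interaction asks whether the change with both agents differs from the sum of the changes with each. It passed for 0 of 20 sterol genes and 0 of 10 fatty acid genes by limma and by limma-voom, where 1.35% of all genes passed by limma. The estimates were above 0 in 19 of 20 and 9 of 10 genes, where 48.5% of all genes were below 0, with medians of 0.45 and 0.57, the side on which the fall with both agents is smaller than the sum of the 2 falls. At an unadjusted p under 0.05 there were 4 sterol genes (Lss, Nsdhl, Dhcr7, Srebf2) and 5 fatty acid genes (Scd2, Acly, Elovl6, Fads1, Fads2) above 0, against 6.72% of all genes. The smallest adjusted p was that of Fads2, at 1.02 ± 0.26 (limma adjusted p = 0.0650), next to Dhcr7 at 0.63 ± 0.16 (limma adjusted p = 0.0661). Without DMXAA 2 and DMXAA 3, left out after seeing the data, the interaction passed in 5 sterol and 2 fatty acid genes. It passed without DMXAA 2 alone in 2 fatty acid genes, and without BO-112+DMXAA 2 in 1 of each. The share of all genes that passed in these settings is not given, so these counts are not by themselves a result about the members.

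Per length, the vehicle tumours held most RNA of Scd2, at 259 CPM per kb of the longest coding transcript, followed by Acly at 96.1, Fads1 at 76.5 and Srebf2 at 72.6 CPM per kb. The sterol enzymes with the highest levels per kb were Sqle (47.0), Cyp51 (44.5), Msmo1 (43.6) and Hmgcs1 (39.9). The lowest were Acss2 (2.27), Fdps (3.35) and Tm7sf2 (4.59). The places of Fdps and Tm7sf2 are uncertain. Of the Fdps 100-base stretches 75.8% also occur in other genes, and 12.1% of the Tm7sf2 exons overlap Vps51 on the same strand. In BO-112 tumours Scd2 stood at 132 CPM per kb and Fads2 at 23.9, against 259 and 52.9 CPM per kb in vehicle tumours.

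Of 11 other genes of sterol synthesis and its control, 1 fell and 2 rose with BO-112, where 4.31% of all genes fell and 7.64% rose. Acat2, which makes acetoacetyl-CoA, stood at 6.69, 8.05, 9.51 and 4.98 CPM in BO-112 tumours, against 18.8, 19.4 and 18.9 CPM in vehicle tumours. Acat2 fell, with no overlap between the groups, at a log2 fold change of -1.42 ± 0.31 (limma adjusted p = 0.00724). Ggps1, which makes geranylgeranyl diphosphate, and the ubiquitin ligase gene Mylip rose by 0.36 ± 0.09 and 0.71 ± 0.18 (limma adjusted p = 0.0130 and 0.0151). The median over the 11 genes was -0.05 with BO-112, -0.02 with DMXAA and -0.04 with both agents. None of the 11 passed by limma or limma-voom with DMXAA or with both agents, where 1 and 3 had an unadjusted p under 0.05.

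Of 14 genes for cholesterol export, storage and oxysterols, 2 fell and 4 rose with BO-112, where 4.31% of all genes fell and 7.64% rose. Nr1h3, the oxysterol receptor LXR alpha, stood at 47.3, 67.9, 65.8 and 50.7 CPM in BO-112 tumours, against 7.33, 9.75 and 8.48 CPM in vehicle tumours. Cyp27a1, the sterol 27-hydroxylase, stood at 2.25, 2.70, 4.52 and 2.49 CPM in BO-112 tumours, against 11.5, 11.5 and 13.3 CPM in vehicle tumours. Nr1h3 rose by 2.75 ± 0.24 and Cyp27a1 stood at -2.06 ± 0.33, with no overlap for either (limma adjusted p = 3.64e-06 and 0.000658). The lysosomal cholesterol carrier Npc2 rose by 1.36 ± 0.20 and Ch25h, which makes 25-hydroxycholesterol, by 1.15 ± 0.23 (limma adjusted p = 0.000379 and 0.00422). Soat1, which esterifies cholesterol, rose by 0.48 ± 0.13 and the HDL receptor Scarb1 stood at -0.60 ± 0.13 (limma adjusted p = 0.0228 and 0.00635). The exporter Abca1 stood at 0.59 ± 0.27 without passing (limma adjusted p = 0.181).

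**Figure D5:**
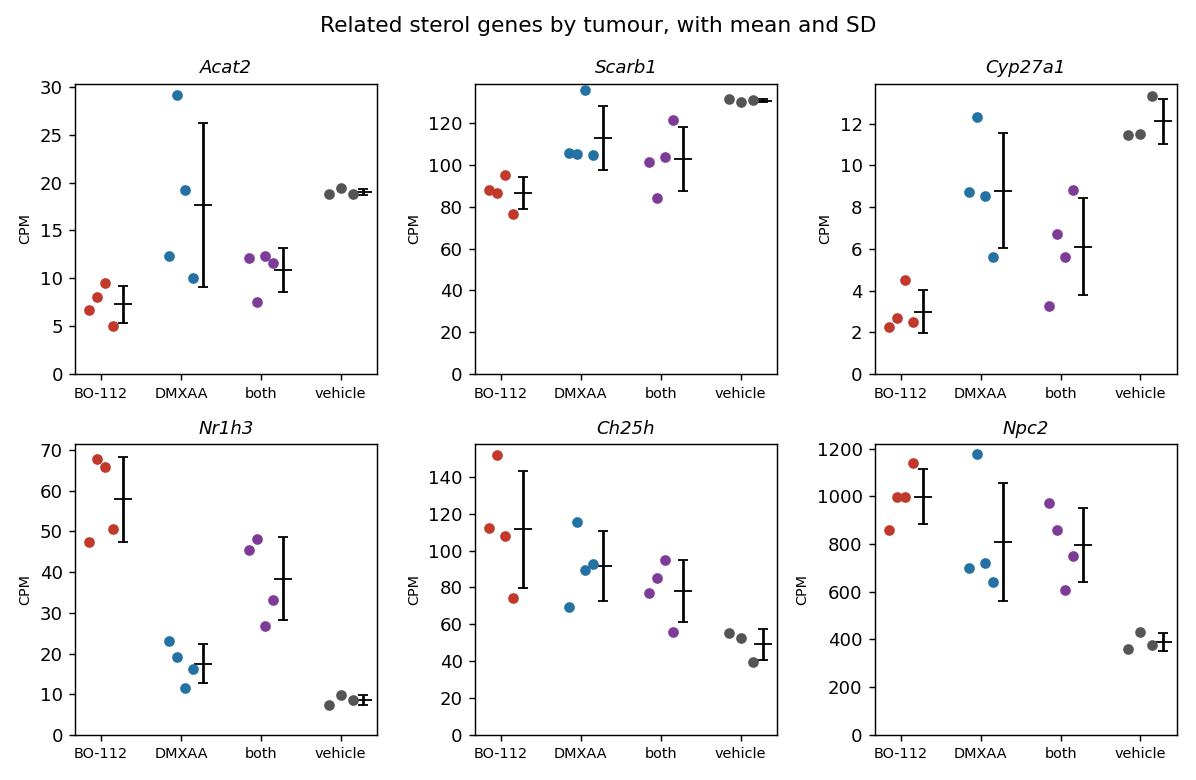
Level in CPM of Acat2, Scarb1, Cyp27a1, Nr1h3, Ch25h and Npc2 in each tumour (points) with the group mean and SD (bars), for BO-112, DMXAA, both agents (BO-112+DMXAA) and vehicle. All BO-112 points lie below all vehicle points for Acat2, Scarb1 and Cyp27a1 and above them for Nr1h3, Ch25h and Npc2.

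In DMXAA tumours Npc2 rose by 1.02 ± 0.20 (limma adjusted p = 0.0231), while Nr1h3 stood at 1.00 ± 0.24 (limma adjusted p = 0.0549), Ch25h at 0.89 ± 0.23 (limma adjusted p = 0.0812) and Abca1 at -0.23 ± 0.27 (limma adjusted p = 0.624). In BO-112+DMXAA tumours Nr1h3 rose by 2.14 ± 0.24 and Npc2 by 1.02 ± 0.20 (limma adjusted p = 0.000166 and 0.0101), while Ch25h stood at 0.65 ± 0.23 (limma adjusted p = 0.214) and Abca1 at 0.28 ± 0.27 (limma adjusted p = 0.858). All comparisons with vehicle share the same 3 vehicle tumours. Leaving out 1 library ended the calls of Ggps1 (vehicle 1 or vehicle 2), Mylip (vehicle 2) and Soat1 (vehicle 1, vehicle 2, BO-112 1 or BO-112 4) with BO-112, and that of Npc2 (vehicle 1 or vehicle 3) with DMXAA and with both agents, with limma adjusted p between 0.0525 and 0.131.

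Of 18 measured genes for other steps of fatty acid synthesis and lipid assembly, 0 fell and 2 rose with BO-112. This share is near the 11.9% of all genes that passed, 4.31% falling and 7.64% rising. The acyl-CoA synthetase Acsl1 stood at 189, 232, 229 and 191 CPM in BO-112 tumours, against 39.1, 45.0 and 28.8 CPM in vehicle tumours, a log2 fold change of 2.50 ± 0.24 (limma adjusted p = 7.70e-06). Acsl4, which prefers arachidonic acid, rose by 0.63 ± 0.10 (limma adjusted p = 0.000745). With DMXAA the phosphatidate phosphatase Lpin1 fell by 0.99 on the log2 scale (SE 0.20, limma adjusted p = 0.0295), and with both agents Acsl1 rose by 1.44 ± 0.24 (limma adjusted p = 0.00265). Of 11 fatty acid oxidation genes 0 passed with BO-112 or with both agents by limma or limma-voom (1 at an unadjusted p under 0.05 in each), and the carnitine carrier Slc25a20 rose by 0.49 ± 0.11 with DMXAA (limma adjusted p = 0.0454), a call that limma-voom did not make (adjusted p = 0.0695). The Lpin1 call was lost without vehicle 1, vehicle 3 or DMXAA 3 (limma adjusted p between 0.0688 and 0.178). The Slc25a20 call was lost without any 1 of 13 libraries, all except DMXAA 2 and DMXAA 4 (limma adjusted p between 0.0547 and 0.244).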

How the data were processed

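RNA from 15 MC38 tumours was measured by mRNA sequencing. STAR, edgeR, limma and the build mm39 are named in the submitters' processing notes, with roles and versions not given in the sources used here. The deposited table holds log2 CPM for 17712 genes, already filtered and scaled by the authors. Its values gave whole reads for 100% of entries (largest distance 5.4e-09, tolerance 1e-06) once 0.5 reads added before the log were taken off, and CPM was computed from those reads and the scaled library sizes (scaling factors 0.850 to 1.08). The deposited raw count table names no samples, so these 15 columns stayed out.

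Symbols came from GENCODE M21 (17636 genes matched, 76 did not). A limma 3.58.1 model (R 4.3.3) with 4 group means, intensity trend and robust moderation was fitted to the log2 CPM of all 15 libraries, and tested on simulated data. limma-voom was run on the recovered reads. Intervals are at 95%. Replicates differed beyond sampling noise, with a chi-square per degree of freedom of at least 8.82. Counting error is small for most members, and Fdps has the fewest reads, 26 in 1 BO-112 tumour.

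The members and lists were chosen with earlier results of these data known. Genes given in every tumour are members that passed in a pairwise comparison and those the text singles out after seeing their values. From each other list at most 4 genes with the smallest adjusted p per comparison are named, plus Ch25h and Abca1, and Ccnb1 and Pcna, chosen after their values were seen, and some genes of these lists are not reported here. Alternatives were other scalings, a filter, 2 reads added, limma-voom, a replicate block, fits to the compared groups alone and each library left out, and 4 chosen after seeing the data (length-trend or muscle-high libraries left out, the length trend removed, array quality weights).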

Additional observations from a re-analysis of the deposited data

Results flagged for a closer look

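In 96 checks of a group of 4 tumours, 8 had 1 tumour apart from the other 3, and chance gives about 1 in 20 for a single check. The checks are not independent, since the genes share the same tumours and the sterol mean holds Mvd and Idi1. The 8 can therefore not be set against that rate. BO-112 3 was the highest BO-112 tumour for Mvd (log2 CPM 4.60, others 4.07 to 4.15), Idi1 (4.50, others 3.75 to 3.81) and the mean of the 20 sterol genes (5.16, others 4.66 to 4.73). BO-112+DMXAA 4 was the highest tumour of its group for Sqle (7.10, others 6.27 to 6.41), Sc5d (5.54, others 4.99 to 5.08) and Insig1 (6.19, others 5.37 to 5.48). DMXAA 1 was the highest DMXAA tumour for Scd1 (8.20, others 7.33 to 7.47) and the lowest for Acly (8.20, others 8.51 to 8.52). None of these 8 was in DMXAA 2.

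The effect of DMXAA with BO-112 differed from its effect without BO-112 for 239 of all 17712 genes by the interaction in limma, none of them among the 30. Only genes of the lists named here were looked at singly, and 4 of these passed. The difference was below 0 for the oxysterol receptor Nr1h3 (-1.61, adjusted p = 0.0271), for Npc2 (-1.36, adjusted p = 0.0263), for Ch25h (-1.39, adjusted p = 0.0456, and 0.0527 with limma-voom) and for the Fc receptor Fcgr1 (-1.49, adjusted p = 0.0260). None of the 4 kept this call with every library left out in turn.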

How the results depend on the processing

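Scaling by geometric-mean ratios, 2 reads added and limma-voom left all 19 calls of members in place. The stricter filter did too. The rest is given as sterol and fatty acid counts, except as follows. With the length trend removed, 13 members passed with BO-112 against vehicle, where Sc5d was lost and Fasn and Acaca were gained. With total reads alone, 4 members passed with both agents against vehicle, where Fads1 was gained. With BO-112 against vehicle the counts (7 and 5) became 13 and 6 with total reads alone, 18 and 8 with the compared groups alone, 1 and 3 with the muscle-high libraries left out, 15 and 7 without the libraries with a length trend, 17 and 8 with array quality weights, and they ranged over 2 to 12 and 3 to 6 with 1 library left out. With DMXAA against vehicle (0 and 0) they became 0 and 1 with total reads alone, 2 and 2 without the length-trend libraries, and 0 and 2 with array weights, and ranged over 0 to 1 for each. With both agents against vehicle (1 and 2) they became 2 and 3 with the compared groups alone, 0 and 0 without the muscle-high libraries, 3 and 5 without the length-trend libraries, 1 and 4 with the length trend removed, and 5 and 8 with array weights, and ranged over 0 to 2 and 0 to 3. With BO-112 against DMXAA (3 and 1) they became 5 and 3 with total reads alone, 0 and 0 with the compared groups alone or without the muscle-high libraries, 1 and 0 without the length-trend libraries or with array weights, and 4 and 3 with the length trend removed, and ranged over 0 to 6 and 0 to 3. For the interaction (0 and 0) they became 0 and 2 with total reads alone, 5 and 2 without the length-trend libraries, 1 and 0 with the length trend removed, and 2 and 2 with array weights, and ranged over 0 to 1 and 0 to 2. Both agents against either agent alone gave 0 throughout. The cause was not tested, except that fewer libraries also leave fewer degrees of freedom. These counts, here and above, come without the share of all genes that passed in the same setting. That share can move with the setting too, so a changed count is not by itself a result about the members.

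Of the 3 comparisons with vehicle, where every member was refitted under each alternative, changes of direction occurred with DMXAA, for 9 members that did not pass. Members that did not pass in the other comparisons are not listed singly, and the sterol median of both agents against DMXAA alone (-0.23) stood at 0.17 without the length-trend libraries. Without the length-trend libraries Mvk stood at -0.48, Pmvk at -0.61, Ebp at -0.21 and Scd1 at 0.026. With array weights Mvk stood at -0.27, Pmvk at -0.49 and Ebp at -0.089. Pmvk stood at -0.034 with total reads alone and -0.13 with the length trend removed, and Msmo1 at 0.22 without the muscle-high libraries. With 1 library left out, the values ranged over -0.53 to 0.11 for Hmgcs1, -0.14 to 0.42 for Mvk, -0.30 to 0.42 for Pmvk, -0.61 to 0.023 for Mvd, -0.60 to 0.0058 for Fdft1, -0.61 to 0.043 for Cyp51 and -0.50 to 0.23 for Msmo1.

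The labels do not say that the replicate numbers pair the tumours, and the correlations given here cannot settle it. Libraries of the same number had a mean correlation of 0.02 over 21 pairs (-0.21 to 0.25, 5 over 0.1), against -0.01 over 63 pairs of other numbers (-0.30 to 0.29, 13 over 0.1). With the replicate block the BO-112 counts were 4 and 5, those of both agents 1 and 0, and those of BO-112 against DMXAA 3 and 0, 13 of 19 calls were kept, and Msmo1 with DMXAA stood at 0.016.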
